A study of Rattus norvegicus with 20 samples.

Results

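Epoxide hydrolases, aldehyde dehydrogenases and alcohol dehydrogenases are phase 1 enzymes outside the cytochrome P450 family, and their genes were followed in the liver of male Harlan Sprague Dawley rats given triphenyl phosphate, a phosphate ester of phenol that serves as a plasticiser and flame retardant. The group held 9 genes of the 14217 genes tested: Ephx1, Ephx2, Aldh1a1, Aldh2, Aldh3a2, Aldh1l1, Aldh9a1, Adh1 and Adh4. They were found as the 10 probe sets, of 31042 analysed, that the platform annotation assigns to these genes. That rule uses no measured value, but the genes were chosen with earlier results of these data known. Rats received triphenyl phosphate in corn oil by oral gavage once a day, 4 doses in all, and liver was taken on day 5. The vehicle group, which received corn oil alone (0 mg/kg), held 5 arrays, and the groups given 55, 110, 220, 440 and 881 mg/kg held 3 arrays each, 20 arrays in all. One dose is 440 mg/kg in the sample labels, which are followed here, and 441 mg/kg in the design text. The rats' age is not given in the sources used here. Each group is said in the treatment text to hold 3 rats, while the vehicle group held 5 arrays, so how its arrays relate to rats is not settled by the labels, and n counts arrays. Nothing in the labels says that the arrays of a group came from separate rats, and p-values then measure only the spread between these samples, part of which may be technical. The study asked how liver gene expression changes with dose over this short exposure.

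Phase 1 enzymes expose or add a reactive group on a foreign or endogenous compound. Epoxide hydrolases open the strained ring of an epoxide by adding water, which gives a diol; the microsomal enzyme mainly meets epoxides that P450 enzymes make from foreign compounds, and the soluble enzyme mainly meets epoxides of fatty acids. Alcohol dehydrogenases oxidise alcohols to aldehydes and aldehyde dehydrogenases oxidise aldehydes to carboxylic acids, so that both families act in sequence on ethanol and on retinol in hepatocytes. Ephx1 is known as a gene induced in rodent liver by phenobarbital-type inducers and by activators of the NRF2 pathway, and Aldh1a1 makes retinoic acid from retinal.

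The genes lie on 7 chromosomes of the RefSeq rat assembly GRCr8. Ephx1 lies at chr13:95246079-95275852 and Ephx2 at chr15:44465447-44503157. Among the aldehyde dehydrogenases, Aldh1a1 lies at chr1:227426939-227579497, Aldh2 at chr12:40610244-40643220 and Aldh3a2 at chr10:46427789-46448449. Aldh1l1 lies at chr4:124617182-124663674 and Aldh9a1 at chr13:82038679-82055478. Both alcohol dehydrogenase genes lie on chromosome 2, Adh1 at chr2:229470703-229482291 and Adh4 at chr2:229622092-229640120. The annotation lists Adh1 under its current symbol, Adh1c, with 2 probe sets. The other 8 genes have 1 probe set each, and which exon a probe set reads was not analysed here.

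RefSeq promoter windows of GRCr8, 250 bases ending at the base before a transcription start, were matched to 7 of the 9 genes. Those of the 4 genes that rose with dose are printed so that the upstream sequences of the genes called can be read side by side. Ephx1 has 2 annotated starts, with windows at chr13:95275853-95276102 and chr13:95263118-95263367, both on the minus strand. The windows of Aldh1a1 (chr1:227537370-227537619), Adh1 (chr2:229470453-229470702) and Adh4 (chr2:229621842-229622091) are on the plus strand. The Aldh1a1 window and that of the second Ephx1 start lie inside the gene spans given above, before a start within the gene. Sequence before the outer end of the Aldh1a1 span was not searched. Capitals mark every match, on either strand, to the motifs searched. These were the core of the antioxidant response element (TGACNNNGC), the core of the dioxin response element (GCGTG), the nuclear receptor hexamers AGGTCA and AGTTCA, and the TATA box (TATAAA).
Ephx1, start 1: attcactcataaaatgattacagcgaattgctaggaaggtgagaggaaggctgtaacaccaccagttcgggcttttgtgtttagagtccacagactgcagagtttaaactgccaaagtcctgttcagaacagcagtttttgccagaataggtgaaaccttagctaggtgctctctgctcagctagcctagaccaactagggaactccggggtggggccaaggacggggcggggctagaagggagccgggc
Ephx1, start 2: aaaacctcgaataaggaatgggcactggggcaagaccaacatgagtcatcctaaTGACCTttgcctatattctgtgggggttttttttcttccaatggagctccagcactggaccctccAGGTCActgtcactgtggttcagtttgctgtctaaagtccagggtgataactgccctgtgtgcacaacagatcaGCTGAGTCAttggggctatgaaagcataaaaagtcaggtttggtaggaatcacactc
Aldh1a1: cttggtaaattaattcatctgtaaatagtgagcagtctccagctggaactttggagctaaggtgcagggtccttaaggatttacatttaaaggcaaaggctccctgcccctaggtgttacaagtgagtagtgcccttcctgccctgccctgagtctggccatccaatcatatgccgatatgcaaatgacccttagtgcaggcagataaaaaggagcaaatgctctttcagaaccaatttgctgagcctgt
Adh1: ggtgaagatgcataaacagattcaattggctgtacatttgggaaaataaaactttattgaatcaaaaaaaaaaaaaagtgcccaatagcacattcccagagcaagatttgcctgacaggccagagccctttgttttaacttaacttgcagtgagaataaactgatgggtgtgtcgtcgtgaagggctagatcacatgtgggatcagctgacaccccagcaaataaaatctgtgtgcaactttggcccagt
Adh4: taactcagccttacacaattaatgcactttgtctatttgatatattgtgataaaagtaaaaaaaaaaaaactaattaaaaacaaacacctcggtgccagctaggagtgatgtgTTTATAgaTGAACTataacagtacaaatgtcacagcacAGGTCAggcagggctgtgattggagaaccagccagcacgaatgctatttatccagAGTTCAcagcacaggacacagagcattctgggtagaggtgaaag

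The window of the second Ephx1 start held 1 match to TGACNNNGC, 57 to 49 bases before the start on the strand opposite the gene. It also held AGGTCA, at 196 to 191 bases before the start on the opposite strand and at 131 to 126 on the gene's own strand. The window of the first Ephx1 start held none of the 5 motifs, and neither did the windows of Aldh1a1 and Adh1. In the Adh4 window AGGTCA stood at 99 to 94 bases before the start and AGTTCA at 44 to 39, both on the gene's own strand, and on the opposite strand AGTTCA stood at 129 to 124 and TATAAA at 137 to 132. Among the genes not called at any dose, the windows of Aldh3a2 and Aldh9a1 each held GCGTG and no other of these motifs, and that of Aldh1l1 held none. Over all 33469 RefSeq promoter windows of this length, 10.1% held TGACNNNGC, 25.9% GCGTG, 14.1% AGGTCA, 12.2% AGTTCA and 12.9% TATAAA. A match describes the letters of the window and is not evidence of a bound factor. No motif was shared by all of the printed windows.

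The arrays had medians between 6.31 and 6.39 on the log2 scale, and their number limits the precision. Replicate 2 of the 881 mg/kg group stood apart: its median correlation with the other arrays was 0.980 against 0.990 to 0.994, and its Gapdh control probe sets differed by 5.24 (log2) between the 3' and 5' ends, against 0.81 to 1.64 on the other 19 arrays. The changes of the 9 genes at 881 mg/kg are given with and without this array. The labelled tissue was borne out by 11 hepatocyte marker genes, whose mean level lay between 13.9 and 14.2 (log2) on every array. In bulk liver RNA, fewer cells of a type and less RNA per cell cannot be told apart.

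Of the 9 genes, 4 rose at 881 mg/kg against vehicle and none fell: the aldehyde dehydrogenase gene Aldh1a1 (2.84-fold), the microsomal epoxide hydrolase gene Ephx1 (1.75-fold), and the alcohol dehydrogenase genes Adh4 (1.65-fold) and Adh1 (1.29-fold). Called changes had an adjusted p under 0.05 in limma's test, with p-values adjusted by Benjamini-Hochberg over all 14217 genes. At this dose 12.7% of all genes rose and 6.73% fell. Of all genes called, 65.4% rose, or 76.8% with each array centred on its median. At 440 mg/kg 3 members rose (Ephx1, Aldh1a1 and Adh4), against 6.76% of all genes, and 4.28% of all genes fell. Aldh1a1 and Adh4 were the 2 members that rose at 110 mg/kg (2.36% of all genes) and again at 220 mg/kg (2.25%). At 55 mg/kg no member was called by limma, where 1.93% of all genes rose, and 2 members, Ephx2 and Adh4, had an unadjusted p under 0.05, as had 15.9% of all genes. The median log2 change of the 9 members at 881 mg/kg was 0.10, and that of all genes was 0.00072. Over the 6 dose steps the trend was upward in the same 4 genes that rose at 881 mg/kg (12.9% of all genes rose and 8.81% fell in the trend), with no downward trend called among the members. With dose in mg/kg as the numeric term Aldh2 was also called, downward. Its lowest array was replicate 2 of the 881 mg/kg group (12.48), and the fit in mg/kg was not repeated without that array. Without replicate 2 of the 881 mg/kg group, 4 members still rose at that dose and 4 in the trend, while the number of all genes called went from 2767 to 1643.

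**Figure D1:**
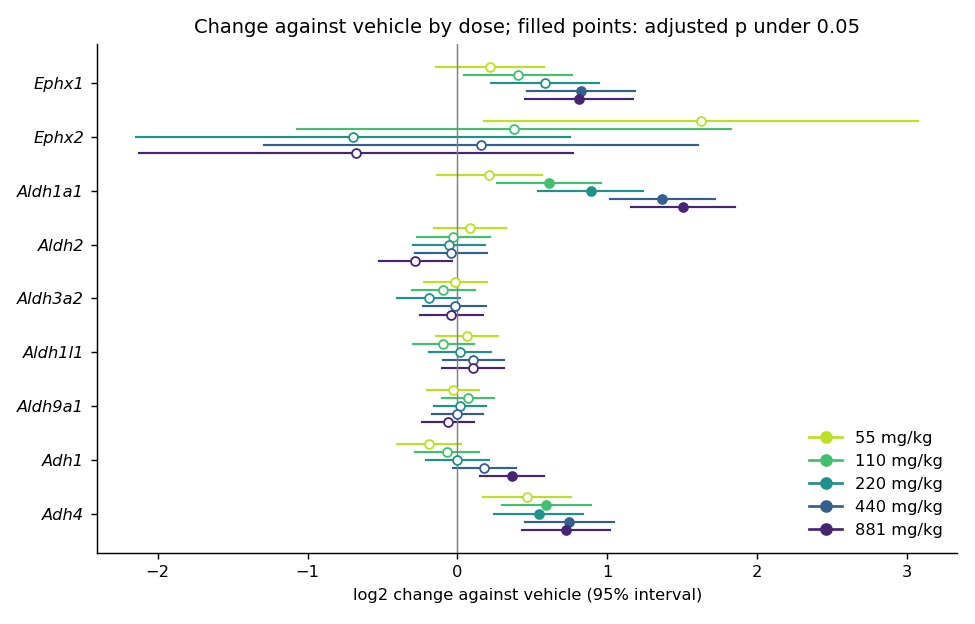
Log2 change against vehicle (horizontal axis) of each of the 9 genes at 55, 110, 220, 440 and 881 mg/kg, with 95% intervals from the model of all 20 arrays; filled points have a limma adjusted p under 0.05. Aldh1a1 reached 1.51 at 881 mg/kg, Ephx1 and Adh4 stood near 0.8 and 0.7 at both top doses, and the intervals of Ephx2 were the widest of the 9 genes.

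Ephx1 encodes microsomal epoxide hydrolase, the enzyme of the endoplasmic reticulum that hydrates epoxides formed from foreign compounds. On the 5 vehicle arrays Ephx1 read 13.17, 12.79, 13.10, 12.87 and 12.93 (log2). It read 12.98, 13.20 and 13.38 at 55 mg/kg, 13.16, 13.59 and 13.38 at 110 mg/kg, and 13.77, 13.15 and 13.74 at 220 mg/kg. At the top doses the values were 13.80, 13.70 and 13.88 at 440 mg/kg and 14.05, 13.25 and 14.04 at 881 mg/kg. All arrays at 440 and 881 mg/kg lay above all vehicle arrays (as they did for 12.8% and 13.4% of all genes), while the 3 lower doses overlapped the vehicle range. The lowest array at 881 mg/kg, replicate 2, was the one that stood apart in the control genes. The log2 change was 0.82 ± 0.17 (SE) at 440 mg/kg, 1.77-fold (limma adjusted p = 0.00436), and 0.81 ± 0.17 at 881 mg/kg (adjusted p = 0.00297). Without replicate 2 the change at 881 mg/kg was 1.08 (adjusted p = 0.000220). At lower doses the change was 0.22 at 55 mg/kg, 0.41 at 110 mg/kg and 0.58 at 220 mg/kg (limma adjusted p = 0.603, 0.234 and 0.0715), none of which passed the test. The value at 220 mg/kg passed the threshold with array weights (0.73, adjusted p = 0.000628) and without replicate 2 of that dose (adjusted p = 0.0337). The trend was 0.18 ± 0.028 per dose step (limma adjusted p = 0.000122), or 0.21 without replicate 2 of the 881 mg/kg group (2.91e-06).

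Ephx2 encodes soluble epoxide hydrolase, which converts epoxides of arachidonic and linoleic acid to diols. Its vehicle arrays read 7.64, 7.55, 7.79, 7.99 and 7.36 (log2). The dosed arrays read 9.86, 10.46 and 7.56 at 55 mg/kg, 7.14, 10.00 and 6.99 at 110 mg/kg, and 6.93, 7.26 and 6.72 at 220 mg/kg. At the top doses they read 6.77, 9.77 and 6.93 at 440 mg/kg and 6.88, 7.30 and 6.79 at 881 mg/kg. The 20 values fell on both sides of a gap of 1.78 log2 units, between 7.99 and 9.77, with 16 arrays below it and 4 above; the next widest gap was 0.46. The 4 high arrays were replicates 1 and 2 at 55 mg/kg, replicate 2 at 110 mg/kg and replicate 2 at 440 mg/kg. Replicate 2 read highest in every dosed group, though not in the vehicle group. The Gapdh differences of the 4 high arrays were 0.95, 1.39, 1.28 and 1.31 in the same order. All arrays but replicate 2 of the 881 mg/kg group lay between 0.81 and 1.64. The part of the replicate number and of the Gapdh differences in the Ephx2 values was not tested. Group means therefore carried SDs of 1.53 at 55 mg/kg, 1.70 at 110 mg/kg and 1.69 at 440 mg/kg, against 0.24 in the vehicle group and 0.27 at both 220 and 881 mg/kg. No dose was called: the log2 change was 1.63 ± 0.69 (SE) at 55 mg/kg (limma adjusted p = 0.244), -0.70 ± 0.69 at 220 mg/kg (0.675) and -0.68 ± 0.69 at 881 mg/kg (0.527), or -0.83 without replicate 2 of the 881 mg/kg group (0.566). Every array at 220 and 881 mg/kg lay below every vehicle array, as for 5.02% and 8.31% of all genes. The spread in this model is shared by all 6 groups and includes the 4 high arrays. With only the compared groups in the fit, Ephx2 passed the test downward at 220 mg/kg (-0.70, limma adjusted p = 0.0281) and at 881 mg/kg (-0.68, adjusted p = 0.0199).

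The changes of both epoxide hydrolase genes were set against each other within arrays, as the log2 value of Ephx1 minus that of Ephx2, which cancels array-wide scaling. This difference was 1.49 higher at 881 mg/kg than in the vehicle group, and the groups did not overlap (two-sided exact permutation test, p = 0.0357, the smallest value that 3 against 5 arrays can give). After adjustment over the 6 such tests made here it was 0.0714. The difference was 1.91 without replicate 2 of the 881 mg/kg group (exact permutation test, adjusted p = 0.161). With that array left out, too few arrays remain for this test to give a p under 0.05, so that p does not measure weaker support. At 440 mg/kg, where 1 Ephx2 array was high, the difference was 0.67 (exact p = 0.286, adjusted 0.286), or 1.69 without that array. An adjusted p under 0.05 would have needed nearly all of the 6 tests to reach the smallest p. At 881 mg/kg, where the smallest p was reached, the adjusted test therefore could not decide. At 440 mg/kg a different response of both genes was not shown.

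**Figure D2:**
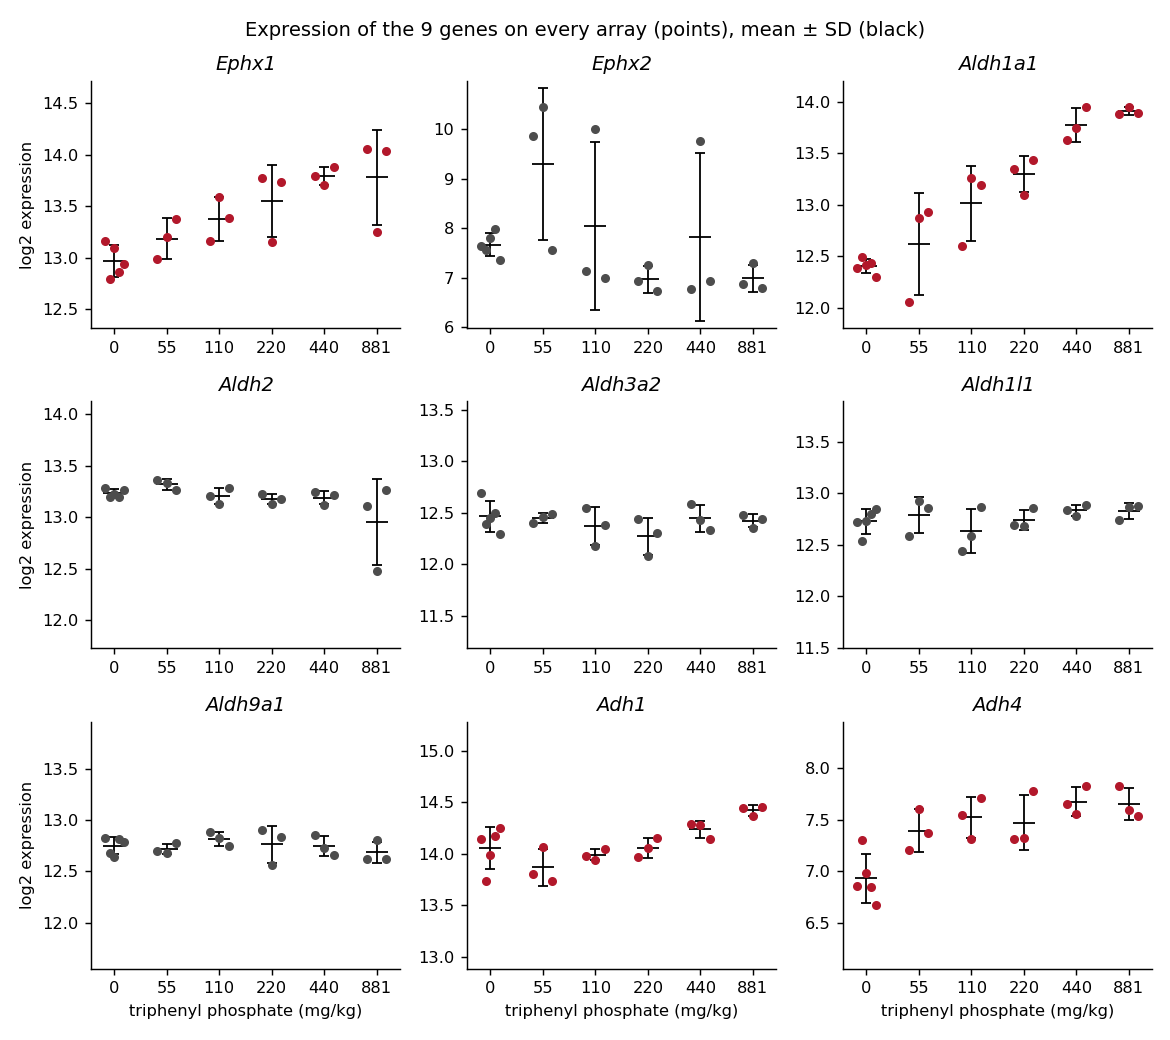
Log2 expression (vertical axes, each panel with its own range) of the 9 genes on each array by dose of triphenyl phosphate (0 is vehicle); points are arrays, black bars are the group mean ± SD, and red points belong to genes called at 1 dose or more. Aldh1a1 climbed from 12.30 to 12.49 in the vehicle group to 13.88 to 13.95 at 881 mg/kg, and the 4 high arrays of Ephx2 stand apart from its other 16.

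Aldh1a1 encodes the cytosolic aldehyde dehydrogenase that oxidises retinal to retinoic acid and also handles aldehydes of lipid peroxidation. The vehicle arrays read 12.38, 12.49, 12.41, 12.44 and 12.30 (log2). The gene read 12.05, 12.88 and 12.93 at 55 mg/kg, 12.60, 13.26 and 13.20 at 110 mg/kg, and 13.35, 13.10 and 13.43 at 220 mg/kg. It reached 13.63, 13.74 and 13.95 at 440 mg/kg and 13.88, 13.95 and 13.89 at 881 mg/kg. Only the 55 mg/kg group overlapped the vehicle group, since 1 of its arrays lay below all vehicle arrays and the other 2 above them. Of all genes, 7.62%, 7.95%, 12.8% and 13.4% had all dosed arrays above vehicle at 110, 220, 440 and 881 mg/kg. The log2 change grew from 0.21 ± 0.17 (SE) at 55 mg/kg, which did not pass the test (limma adjusted p = 0.597), to 0.61 at 110 mg/kg (adjusted p = 0.0478) and 0.89 at 220 mg/kg (0.00553). It was 1.37 ± 0.17 at 440 mg/kg (2.58-fold, 3.29e-05) and 1.51 ± 0.17 at 881 mg/kg (9.47e-06), or 1.48 at 881 mg/kg without replicate 2 (0.000102). Of the 9 genes Aldh1a1 had the steepest trend, 0.32 ± 0.027 per dose step (limma adjusted p = 7.82e-08), or 0.32 without replicate 2 of the 881 mg/kg group (4.59e-07). The call at 110 mg/kg was lost when any 1 of the 5 vehicle arrays, or replicate 2 or 3 of the 110 mg/kg group, was left out (adjusted p between 0.0716 and 0.224). It was kept without replicate 1 of that dose, the lowest of its arrays (0.82, adjusted p = 0.0178). With the replicate number as a block in the model the call at 110 mg/kg was lost (0.59, limma adjusted p = 0.0758).

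Aldh2 encodes the mitochondrial enzyme that oxidises acetaldehyde to acetate. The vehicle arrays read 13.28, 13.19, 13.23, 13.20 and 13.27 (log2), and the 9 arrays at 110, 220 and 440 mg/kg lay between 13.12 and 13.29. At 881 mg/kg the values were 13.11, 12.48 and 13.26, with replicate 2 the low array and an SD of 0.41, against 0.041 in the vehicle group. The log2 change at 881 mg/kg was -0.28 (95% interval -0.52 to -0.039) and did not pass the test (limma adjusted p = 0.0955); without replicate 2 it was -0.045 (adjusted p = 0.737), and without replicate 3 it was -0.44 and passed (0.0127). At the 4 lower doses the change lay between -0.055 and 0.085. The trend of Aldh2 was -0.046 ± 0.020 per dose step and did not pass (limma adjusted p = 0.0958). With dose in mg/kg as the numeric term it passed downward (-0.00033 per mg/kg, adjusted p = 0.0441), and without replicate 2 the trend was -0.017 per dose step (0.340). The Aldh1a1 minus Aldh2 difference within arrays was 1.41 higher than in the vehicle group at 440 mg/kg and 1.79 higher at 881 mg/kg, with no overlap of arrays at either dose. Both exact permutation tests gave the smallest p possible, 0.0357, and 0.0714 after adjustment over 6 tests. An adjusted p under 0.05 would have needed nearly all of the 6 tests to reach that smallest p, so the adjusted tests could not decide. Without replicate 2 the difference at 881 mg/kg was 1.53 (exact permutation test, adjusted p = 0.161), where too few arrays remain for this test to give a p under 0.05.

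The other 3 aldehyde dehydrogenase genes did not pass the test at any dose. Aldh3a2, whose enzyme oxidises long-chain fatty aldehydes, lay between 12.29 and 12.69 (log2) on the vehicle arrays and read 12.48, 12.35 and 12.44 at 881 mg/kg. Its change there was -0.040 (95% interval -0.25 to 0.17, limma adjusted p = 0.817), and its largest change was -0.19 at 220 mg/kg (0.357). Aldh1l1, which encodes the cytosolic formyltetrahydrofolate dehydrogenase of folate metabolism, lay between 12.53 and 12.84 on the vehicle arrays and read 12.74, 12.87 and 12.88 at 881 mg/kg. The change of Aldh1l1 was 0.10 (interval -0.10 to 0.31, adjusted p = 0.489). Aldh9a1, whose enzyme takes part in carnitine synthesis, lay between 12.64 and 12.82 in the vehicle group and read 12.62, 12.80 and 12.63 at 881 mg/kg, a change of -0.063 (interval -0.24 to 0.11, adjusted p = 0.630). Without replicate 2 of the 881 mg/kg group the changes were -0.0040, 0.084 and -0.12 in the same order (limma adjusted p = 0.987, 0.687 and 0.419). Over the 3 genes the intervals from all arrays ran from -0.25 to 0.31, and they do not show that the levels were equal.

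Adh1 encodes the class I alcohol dehydrogenase of liver, the main enzyme of ethanol oxidation. The probe set that stands for the gene read 14.15, 13.73, 13.99, 14.17 and 14.25 (log2) on the vehicle arrays. The dosed values were 13.80, 14.07 and 13.73 at 55 mg/kg, 13.98, 13.94 and 14.05 at 110 mg/kg, and 13.97, 14.05 and 14.16 at 220 mg/kg. They were 14.29, 14.28 and 14.14 at 440 mg/kg and 14.45, 14.36 and 14.46 at 881 mg/kg. The arrays at 881 mg/kg all lay above the vehicle range, as for 13.4% of all genes, and those at the lower doses overlapped it. The log2 change was 0.36 ± 0.10 (SE) at 881 mg/kg (limma adjusted p = 0.0166), or 0.39 without replicate 2 (adjusted p = 0.0352). At 55 and 440 mg/kg the change was -0.19 (0.378) and 0.18 (0.288), which did not pass. With only the compared groups in the fit the call at 881 mg/kg was lost (adjusted p = 0.0648). The trend was 0.074 ± 0.020 per dose step (adjusted p = 0.0120), or 0.071 without replicate 2 of the 881 mg/kg group (0.0301).

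The other Adh1 probe set read lower and moved further. Its mean was 9.72 ± 0.40 (SD, n = 5) in the vehicle group and 10.75 ± 0.10 (n = 3) at 881 mg/kg, where its log2 change was 1.03 ± 0.19 (SE; limma adjusted p = 0.00156 over the 31042 probe sets). At 55 mg/kg the change was -0.44 ± 0.19 (limma adjusted p = 0.336), against -0.19 for the probe set used for the gene. At 440 mg/kg the change was 0.45 (adjusted p = 0.193), and the trend was 0.20 per dose step (0.00631). This probe set changed by 1.09 at 881 mg/kg (limma adjusted p = 0.00459) and by 0.18 per dose step (0.0199) when replicate 2 of the 881 mg/kg group was left out. Both probe sets of Adh1 were lowest at 55 mg/kg and highest at 881 mg/kg. They differ in size, so the fold change of Adh1 depends on the probe set: 1.29-fold for the one with the higher signal, and a log2 change of 0.70 when both were averaged.

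**Figure D3:**
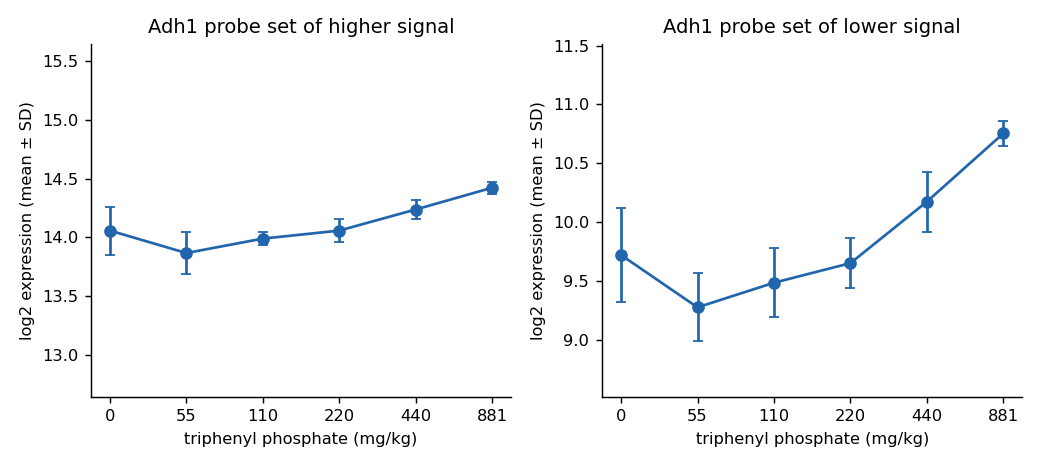
Mean log2 expression ± SD of both Adh1 probe sets by dose (0 is vehicle, 5 arrays; 3 arrays at each dose), on vertical axes of the same span. From vehicle to 881 mg/kg the left probe set went from 14.06 to 14.42 and the right one from 9.72 to 10.75.

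Adh4 encodes the class II alcohol dehydrogenase, which oxidises larger alcohols and retinol. The vehicle arrays read 6.85, 7.30, 6.98, 6.84 and 6.67 (log2), a little above the array medians. The dosed arrays read 7.20, 7.61 and 7.37 at 55 mg/kg, 7.54, 7.32 and 7.71 at 110 mg/kg, and 7.32, 7.32 and 7.78 at 220 mg/kg. They read 7.65, 7.55 and 7.83 at 440 mg/kg and 7.83, 7.60 and 7.54 at 881 mg/kg. From 110 mg/kg upward every dosed array lay above every vehicle array. This was so for 7.62%, 7.95%, 12.8% and 13.4% of all genes at 110, 220, 440 and 881 mg/kg. At 110 and 220 mg/kg the lowest dosed Adh4 array (7.32) was close to the highest vehicle array (7.30). The log2 change was 0.59 ± 0.14 (SE) at 110 mg/kg (limma adjusted p = 0.0247), 0.54 at 220 mg/kg (0.0386), 0.75 at 440 mg/kg (1.68-fold, 0.00200) and 0.72 at 881 mg/kg (0.00154), or 0.75 at 881 mg/kg without replicate 2 (0.00561). At 55 mg/kg the change of 0.46 did not pass (adjusted p = 0.0862), though it did with array weights (0.52, adjusted p = 0.0310) and without replicate 2 of the vehicle group (0.56, 0.0395). The call at 110 mg/kg was lost without vehicle replicate 4 (0.0587) and without replicate 1 (0.0904) or 3 (0.135) of that dose. The call at 220 mg/kg was lost without vehicle replicate 1, 3, 4 or 5 and without any 1 of the 3 dosed arrays (adjusted p between 0.0543 and 0.225). With the replicate number as a block in the model, the calls at 110 mg/kg (0.48, limma adjusted p = 0.120) and 220 mg/kg (0.43, 0.168) were lost. The trend of Adh4 was 0.14 ± 0.027 per dose step (limma adjusted p = 0.000820), or 0.15 without replicate 2 of the 881 mg/kg group (0.00114). The Adh1 minus Adh4 difference within arrays was -0.57 at 440 mg/kg and -0.36 at 881 mg/kg relative to vehicle (exact permutation p = 0.107 and 0.214; adjusted 0.161 and 0.257), so a different response of both alcohol dehydrogenase genes was not shown. With the mean of both Adh1 probe sets the difference at 881 mg/kg was -0.026, and without replicate 2 of that dose it was -0.36.

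The shares of the 881 mg/kg change that the 4 genes had at lower doses were as follows. The change of Adh4 at 55 mg/kg was 64.1% of its change at 881 mg/kg, and it was 81.7% at 110 mg/kg, 74.8% at 220 mg/kg and 103% at 440 mg/kg. For Aldh1a1 the shares were 14.1%, 40.6%, 59.0% and 90.9% at the same 4 doses. Ephx1 reached 26.6%, 50.1%, 71.9% and 101%. If replicate 2 of the 881 mg/kg group, where Ephx1 was low, was left out, its shares at 110, 220 and 440 mg/kg were 37.7%, 54.1% and 76.4%. The shares at 440 mg/kg without that array were 98.9% for Adh4, 92.2% for Aldh1a1 and 45.5% for Adh1. Adh1 reached 49.2% at 440 mg/kg and had a negative change at 55 mg/kg. These shares share the vehicle arrays and the 881 mg/kg arrays, and differences between genes in their shares were not tested. Between neighbouring doses none of the members was called by limma. With 1 probe set per gene, only Aldh1a1 had an unadjusted p under 0.05 among the members. It did so from 55 to 110 mg/kg (0.40, limma adjusted p = 0.999) and from 220 to 440 mg/kg (0.48, adjusted p = 0.773). Such a p was found for 2.72% and 5.87% of all genes in these 2 comparisons. The Adh1 probe set not used for the gene changed by 0.52 ± 0.21 (SE) from 220 to 440 mg/kg and by 0.58 ± 0.21 from 440 to 881 mg/kg. Its limma adjusted p over the 31042 probe sets was 0.987 and 0.399, and both changes were larger than those of the probe set used. From 440 to 881 mg/kg no member, by the probe set used for it, had an unadjusted p under 0.05. By these probe sets the largest change among the called genes was 0.19 for Adh1. With replicate 2 of the 881 mg/kg group left out, Ephx1 changed most of these genes (0.25, limma adjusted p = 0.708, against -0.012 with it), Adh1 changed by 0.21, and 114 of all genes were called in place of 37. Of all genes, 0.260% were called between 440 and 881 mg/kg, 0.0211% between 220 and 440 mg/kg, and 0 between 110 and 220 or between 55 and 110 mg/kg (417 and 387 genes at an unadjusted p under 0.05).

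Across the 20 arrays Aldh1a1 and Ephx1 had a Pearson correlation of 0.851, Aldh1a1 and Adh4 0.768, Ephx1 and Adh4 0.681, and Adh1 and Adh4 0.241. These arrays share 6 dose groups, so any pair of genes that changes with dose will correlate, and the values are given as a description. The genes whose log2 values were most like those of Aldh1a1 were Abcc3 (r = 0.975), which encodes an efflux transporter of conjugates, the glutathione transferase gene Gsta3 (0.964) and the P450 gene Cyp3a23-3a1 (0.958). Closest to Ephx1 were App (0.912), the glutathione transferase gene Gstm1 (0.899) and Dap (0.898). Adh1 was most like Acss2 (0.861), which encodes an acetyl-CoA synthetase, and the sterol synthesis genes Lss (0.846) and Acat2 (0.846). Adh4 was most like Atg4d (0.855) and the circadian transcription factor genes Tef (0.847) and Nr1d2 (0.847). Without replicate 2 of the 881 mg/kg group the correlation of Ephx1 with App was 0.968, and the other 11 correlations lay between 0.830 and 0.972.

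Other genes of the same families were also called at 881 mg/kg, where 12.7% of all genes rose and 6.73% fell. Of 12 other measured aldehyde dehydrogenase genes, 3 rose and 1 fell at 881 mg/kg, with a median log2 change of -0.066. Aldh1l2, a mitochondrial folate enzyme gene, rose by 0.39 ± 0.088 (SE; limma adjusted p = 0.00474), Aldh16a1 by 0.28 (0.0134) and Aldh4a1, of proline breakdown, by 0.25 (0.0243). Aldh1a3, which like Aldh1a1 encodes a retinal dehydrogenase, fell by 0.87 ± 0.24 on the log2 scale (0.0181). Without replicate 2 of the 881 mg/kg group the calls of Aldh1a3 (-0.53, adjusted p = 0.162) and Aldh4a1 (0.25, 0.0721) were lost, so that 2 rose and 0 fell. None of the 12 was called by limma at 440 mg/kg, where 3 had an unadjusted p under 0.05, as had 25.6% of all genes.

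Among 12 other measured alcohol and retinol dehydrogenase genes, 5 rose and 4 fell at 881 mg/kg, where 12.7% of all genes rose and 6.73% fell. None was called by limma at 440 mg/kg, where 4 had an unadjusted p under 0.05 (25.6% of all genes). Adh7, the class IV enzyme gene, rose by 0.91 ± 0.20 (SE; limma adjusted p = 0.00375), the sorbitol dehydrogenase gene Sord by 0.47 (0.00213) and Rdh10, whose enzyme makes retinal from retinol, by 0.41 (0.00168). Dhrs3 (0.32) and Adh5 (0.30) also rose. The retinol dehydrogenase gene Rdh16 fell by 0.89 ± 0.28 on the log2 scale (adjusted p = 0.0295), and Rdh5 (-0.38), Adhfe1 (-0.32) and Rdh7 (-0.30) fell as well. The last 2 of the genes that rose and the last 3 of those that fell were named after their values were seen. Without replicate 2, 4 rose and 2 fell, and the calls of Rdh16 (-0.61, adjusted p = 0.201), Rdh7 (-0.25, 0.0684) and Adh5 (0.20, 0.151) were lost, while Adh7 kept its call at 0.65 (0.0388). The 2 other epoxide hydrolase genes measured, Ephx4 (0.13) and Lta4h (-0.015), were not called by limma, and neither had an unadjusted p under 0.05.

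Of 19 measured phase 1 oxidoreductase genes outside the P450 family and outside these enzyme classes, 8 rose and 1 fell at 881 mg/kg, and 7 rose at 440 mg/kg. Of all genes 12.7% rose and 6.73% fell at 881 mg/kg, and 6.76% rose at 440 mg/kg. The aldehyde reductase gene Akr7a3 rose by 1.86 ± 0.29 (SE; limma adjusted p = 0.000216), the quinone reductase gene Nqo1 by 1.79 ± 0.25 (0.000106), the P450 reductase gene Por by 1.10 ± 0.16 (0.000128) and the aldehyde oxidase gene Aox1 by 0.90 ± 0.12 (4.41e-05). The monooxygenase gene Fmo1, named after its value was seen, fell by 0.86 on the log2 scale. The counts were also 8 and 1 without replicate 2, but with 1 gene exchanged: Fmo5 lost its call (0.53, adjusted p = 0.0443, to 0.21, 0.375) and Cyb5a gained one (0.35, 0.0351). Both were named after their values were seen. At 440 mg/kg Akr7a3 (1.71), Nqo1 (1.40), Por (1.01) and Aox1 (0.88) had risen too. Of 11 genes of xenobiotic sensors and their partners, the NRF2 inhibitor gene Keap1 (0.49 ± 0.11, adjusted p = 0.00315) and the dioxin receptor gene Ahr (0.27, 0.0320) rose at 881 mg/kg. Nr1i2, which encodes the pregnane X receptor, fell by 0.44 on the log2 scale (0.000474). The call of Ahr was lost without replicate 2 (0.22, adjusted p = 0.158).

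**Figure D4:**
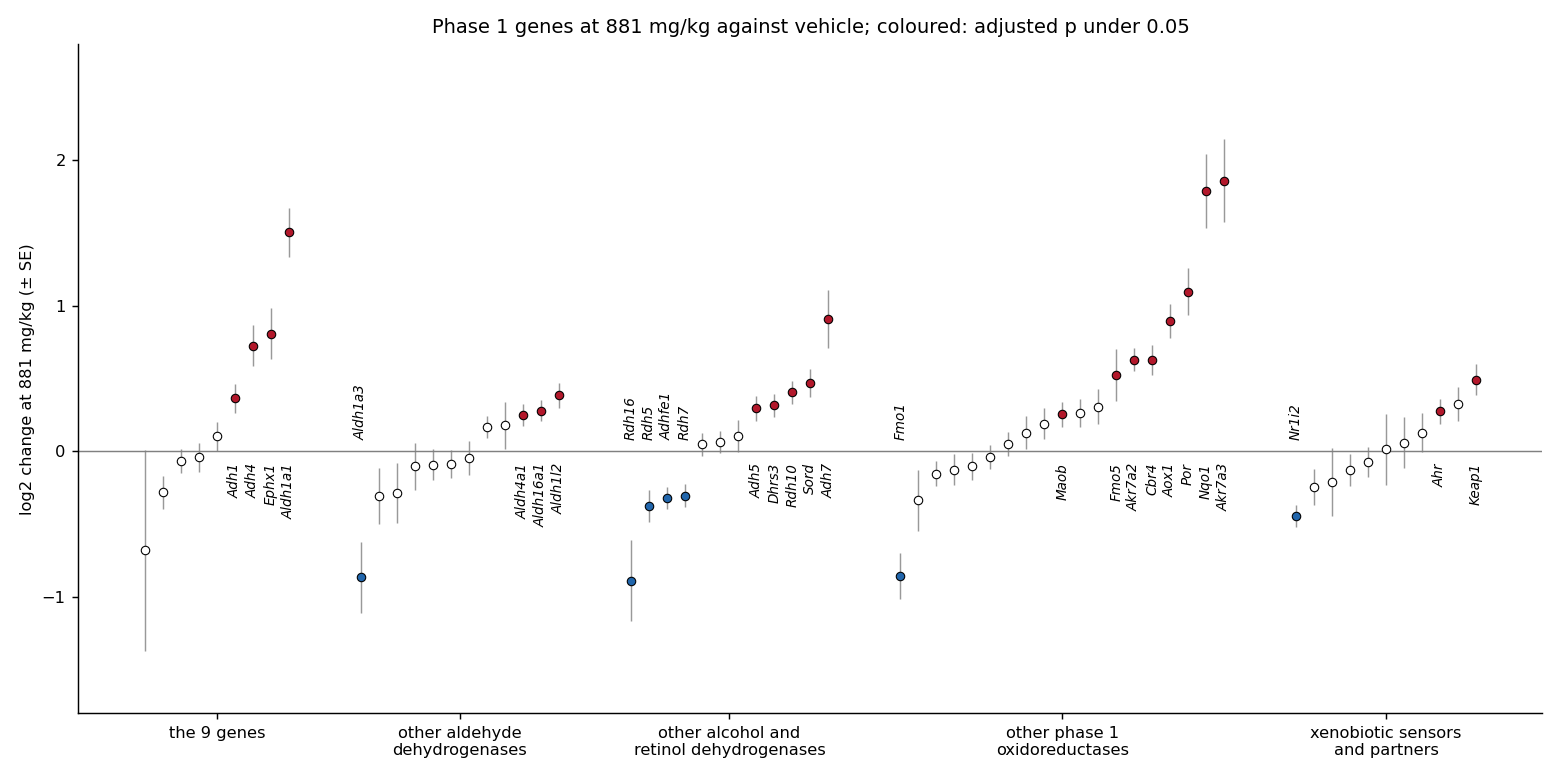
Log2 change ± SE at 881 mg/kg against vehicle (vertical axis) of the 9 genes and of 4 lists of related genes, each point a gene ordered by its change within its list. Red points rose and blue points fell at a limma adjusted p under 0.05, and each of these is named; Aldh1a1 (1.51) moved furthest of the 9 genes, and Akr7a3 (1.86) and Nqo1 (1.79) moved furthest of the genes drawn.

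Marker genes of other liver cell types and of liver zones also differed from vehicle at 881 mg/kg, where 12.7% of all genes rose and 6.73% fell. At 881 mg/kg 7 of 8 Kupffer cell and macrophage markers fell, led by C1qb (-1.13), C1qc (-0.90), C1qa (-0.88) and Clec4f (-0.78), and the mean of the list lay between 8.82 and 9.50 (log2) against 9.64 to 10.13 on the vehicle arrays. Of 8 stellate cell and fibroblast markers 6 fell, led by Col3a1 (-0.91), Ecm1 (-0.89), Col1a2 (-0.83) and Lrat (-0.77), with list means of 7.70 to 8.30 against 8.31 to 8.76. Endothelial markers fell in 3 of 7 cases (Kdr, Pecam1 and Egfl7), lymphocyte markers in 3 of 7 (Il7r, Cd3d and Cd79b) and blood cell markers in 2 of 5 (Hbb and Alas2). Of 5 bile duct markers 1, Epcam, rose. The values are on a log2 scale with no true zero, so no marker can be called absent from them. Without replicate 2 the counts that fell were 4 Kupffer cell, 2 stellate cell, 1 endothelial, 1 lymphocyte and 2 blood cell markers. The calls of C1qb (-0.70, limma adjusted p = 0.152) and C1qc (-0.70, 0.0689) were among those lost, as were those of Col1a2 (-0.44, 0.205) and Lrat (-0.64, 0.0647). Without that array the Kupffer cell marker that fell most was Cd163 (-0.94, 0.00145), named after its value was seen. Among 9 pericentral hepatocyte markers 6 fell, led by Oat (-1.99), Glul (-0.75), Cyp1a2 (-0.64) and Axin2 (-0.62), and 6 also fell without replicate 2. The list means were 9.38 to 9.49 at 881 mg/kg and 9.88 to 10.06 in the vehicle group. Of 9 periportal markers 4 fell (Sds, Hal, Cyp2f4 and Cps1, the last named after its value was seen) and Arg1 rose, with list means of 11.60 to 11.71 against 11.81 to 12.10, and without replicate 2 the number that fell was 2. Of 11 hepatocyte markers Apoa1 (0.34) rose and Cps1 (-0.19) and Serpina1 (-0.16) fell, while 0 fell without replicate 2 or after centring of the arrays. The part of these shifts in the changes of the 4 genes that rose was not tested.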

How the data were processed

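Liver RNA was measured on Affymetrix arrays, 1 array per sample. The authors deposited log2 values of expression for each probe set, made with RMA per the submitters' processing notes, which name no version or settings; that they are log2 was judged from their range. RMA in general equalises the distributions of arrays, so differences in total RNA are removed and low signals are compressed. Of 31099 probe sets, 57 control probe sets were left out. A single gene symbol was annotated to 20826 probe sets, more than 1 to 436 and no symbol to 9780, and 20758 matched a RefSeq gene ID (GRCr8). Where a gene had several probe sets (4525 of 14217 genes), the brightest on average was used.

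A linear model of the 6 dose groups was fitted to all genes with limma 3.58.1 (lmFit, eBayes) in R 4.3.3, with two-sided tests, Benjamini-Hochberg adjustment and a threshold of 0.05. The trend used the dose step as a number. Gene pairs were compared with exact permutation tests (SciPy 1.17.1, Python 3.11.15). The code was tested on simulated data. At most 0.0226% of values were identical between any pair of arrays. Replicate numbers occur in every group, but no label says that they pair arrays. Alternatives covered the choice of probe set, a signal filter, centring of arrays, a replicate block, variance and weight settings, a beta-actin covariate, the groups in the fit, the dose scale and leaving out each array.

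The members and lists were chosen with earlier results of these data known. All members are named. From each other list the called genes with the largest change at 881 mg/kg, at most 4, are named, with further ones marked as named after their values were seen, and for each called member the 3 genes with the highest correlation. Comparisons of neighbouring doses, and lists with centred arrays or without replicate 2 of the 881 mg/kg group, and shares and Adh1 probe sets without that array were added after the data were seen. Of 9 genes, 7 had a promoter in the RefSeq table; Ephx2 and Aldh2 had none there.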

Additional observations from a re-analysis of the deposited data

How the results depend on the processing

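The 9 genes gave 1161 results under alternatives to the choices made: 1062 kept their direction and their side of the threshold, 26 lost a call, 10 gained one, 63 changed sign without being called and 0 reversed. At 440 mg/kg the number of members called stayed at 3 (range 3 to 3 when 1 array was left out) and in the trend it was 4, or 5 with dose in mg/kg as the numeric term, which added Aldh2 downward (adjusted p = 0.0441; 4 to 4 when 1 array was left out). At 881 mg/kg it lay between 4 and 5, the count of 5 coming from Aldh2 without 881 mg/kg replicate 3 (-0.44, limma adjusted p = 0.0127). With only the compared groups it was also 4 there, but Ephx2 was gained downward (0.0199) and Adh1 was lost (0.0648). Between 440 and 881 mg/kg it was 0 (0 to 0). At 110 mg/kg 2 members were called, but 1 with the mean of the probe sets of a gene, 1 with every probe set tested, 1 with eBayes with trend and robust settings, and 0 to 1 with 1 array left out. At 220 mg/kg 2 were called, 1 with every probe set tested and 1 to 2 with 1 array left out. The count was 3 with array weights, where 1293 of all genes were called in place of 488. It was also 3 with the beta-actin covariate. Both settings added Ephx1 (limma adjusted p = 0.000628 and 0.0163). With only the compared groups 3 were called there, Ephx1 (0.0492) and Ephx2 (0.0281) being added and Adh4 (0.0721) lost. At 55 mg/kg 0 were called, 1 with array weights (842 of all genes in place of 400) and 0 to 1 with 1 array left out. The causes were not tested.

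The replicate numbers do not pair the arrays by any label. Same-numbered arrays of different groups had correlations of their deviations of -0.116 to 0.348 (median 0.136, 45 pairs). For differently numbered arrays these were -0.283 to 0.224 (median -0.050, 120 pairs). Of the 18 arrays whose number occurs in every group, 15 correlated best with an array of their own number. Most of the arrays they were compared with carried another number. The deviations thus shared structure by replicate number, seen in the data only, and its source was not tested. The main model holds no term for this structure. With the replicate block 0 members were called at 110 mg/kg and 1 at 220 mg/kg. The calls lost were those of Aldh1a1 (limma adjusted p = 0.0758) and Adh4 (0.120) at 110 mg/kg and of Adh4 (0.168) at 220 mg/kg. Leaving out 1 array, the pair differences ran as follows: Ephx1 minus Ephx2 0.14 to 1.69 at 440 mg/kg and 1.26 to 1.91 at 881 mg/kg, Adh1 minus Adh4 -0.74 to -0.44 and -0.54 to -0.25, and Aldh1a1 minus Aldh2 1.33 to 1.51 and 1.53 to 1.95. Adh1 minus Adh4 was -0.57 and -0.36 at these doses, -0.43 and -0.026 with the mean of the probe sets, and -0.35 and -0.14 with the replicate block. Over all genes, 400, 513, 488 and 1570 were called at 55, 110, 220 and 440 mg/kg, and 842, 800, 1293 and 2511 with array weights. The beta-actin covariate gave 678 and 780 at the first and the second of these doses, and the replicate block 322 at 220 mg/kg. At 881 mg/kg the fit of only the compared groups called 1795 in place of 2767, and between 440 and 881 mg/kg 0 in place of 37, where array weights gave 174 and the covariate 68. With 1 array left out these counts ran from 127 to 391, 212 to 481, 204 to 457, 867 to 1434 and 1643 to 2725 at the 5 doses and from 1 to 114 between 440 and 881 mg/kg. The number of arrays limits the precision.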
